A study of Mus musculus with 70 samples.

Results

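The 8 mature miRNAs of the miR-34 and miR-449 family were followed across microglia and the other cells of the mouse brain during postnatal development. The members were chosen by name and were mmu-miR-34a-5p, mmu-miR-34b-5p, mmu-miR-34b-3p, mmu-miR-34c-5p, mmu-miR-34c-3p, mmu-miR-449a-5p, mmu-miR-449b and mmu-miR-449c-5p, written below without the species prefix. These were 8 of the 1882 miRNA features in the table. Each was listed once, none had counts identical to those of another name, and all 8 were among the 1072 features that passed the filter of at least 1 CPM (counts scaled to the library total) in at least 5 libraries. miR-449b passed it through its P6 libraries.

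Small RNA was sequenced from whole brains of male and female C57Bl/6 mice on postnatal days 6 (P6) and 15 (P15) and at 8 weeks of age, with no treatment or genetic change. From each brain, CD45-positive cells captured on an antibody-coated dish (immunopanning) gave a library called microglia here, and the CD45-negative cells that remained gave a library called bulk cells, which held mainly neurons, oligodendrocytes and astrocytes. The analysed set was 68 libraries of 34 mice, with 10 mice at P6 (4 females and 6 males), 12 at P15 and 12 at 8 weeks (6 of each sex at both ages). CD45 also marks monocytes, macrophages and other white blood cells, and no library came from isolated ciliated cells.

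Total counts ranged from 1678034 to 8747394 per library, at which 3 counts, the smallest number treated as detected, were worth 0.343 to 1.79 CPM. The labels of the fractions were checked against 3 myeloid markers (miR-223-3p and both arms of miR-142a), which were higher in microglia at each age, with summed medians of 14075, 23042 and 20834 CPM at P6, P15 and 8 weeks against 116, 276 and 244 CPM in bulk cells. The 4 erythroid markers were also higher in microglia at each age. The 5 neuronal markers were lower in microglia at each age, but their summed median there was still 23831 to 28458 CPM.

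The members come from 3 places in the genome. miR-34b and miR-34c share a primary transcript, and miR-449a, miR-449b and miR-449c lie within the gene Cdc20b. Both of these loci are known for their activity in epithelia with motile cilia, such as the ependyma that lines the brain ventricles, where their products hold back centriolar proteins that block the growth of cilia and help cells leave the cell cycle. miR-34a is found in many tissues and is known as a transcriptional target of p53, the tumour suppressor that responds to DNA damage. A miRNA finds its targets mainly through its seed, the bases from the second to the eighth, so that members with one seed are expected to share many targets.

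Mature sequences of 6 of the 8 members were matched by name in RefSeq (GRCm38.p6). There was no entry for miR-34c-5p and miR-449b, so their seeds are not shown and the counts of seeds below leave them out. The 6 sequences are shown because the seed is what makes miR-34 and miR-449 one family, although they lie at separate loci. The seed is in capitals, and sequences run from 5′ to 3′. The 4 members of the 5p arm with a sequence were:
miR-34a-5p: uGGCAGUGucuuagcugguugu
miR-34b-5p: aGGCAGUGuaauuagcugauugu
miR-449a-5p: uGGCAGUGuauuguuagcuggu
miR-449c-5p: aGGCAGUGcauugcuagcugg
These 4 were the only ones with the seed GGCAGUG among 1679 mature mouse sequences in that table. The 2 members of the 3p arm share another seed, AUCACUA, which no other mature sequence in the table held:
miR-34b-3p: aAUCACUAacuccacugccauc
miR-34c-3p: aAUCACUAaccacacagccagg

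Outside the seed the 5p members were less alike. Position by position from the 5′ end, miR-34a-5p and miR-449a-5p were identical at 15 of 22 bases, miR-449a-5p and miR-449c-5p at 18 of 21, and miR-34a-5p and miR-34b-5p at 11 of 22. miR-34b-3p and miR-34c-3p were identical at 17 of 22. Reads that fit more than 1 member could be counted for each, so the split of reads between the closest members is uncertain.

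In GRCm38, the precursor gene of miR-34a lies on chromosome 4 (chr4:150068454-150068555, plus strand), where it overlaps the 5′ end of Gm37795, an annotated transcript that awaits experimental evidence. Those of miR-34c (chr9:51103034-51103110) and miR-34b (chr9:51103562-51103645) lie close together on the minus strand of chromosome 9, in an intron of Btg4, a gene of the opposite strand. On the plus strand of chromosome 13 follow those of miR-449c (chr13:113035983-113036091), miR-449b (chr13:113037419-113037498) and miR-449a (chr13:113037534-113037624), within introns of Cdc20b, which has the same orientation. The miR-449b and miR-449a precursors are separated by 35 bases.

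Levels are given as CPM scaled by TMM, which corrects library totals for differences in composition. A difference was called when the limma TREAT test placed it beyond a log2 fold change of 1 in either direction with an adjusted p under 0.05 over all 1072 features, and adjusted p-values below are from this test. Groups are given by their lowest, median and highest library. Enrichment is used below for more CPM in the microglial fraction. In such samples, fewer cells of a type and less RNA per cell cannot be told apart.

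**Figure D1:**
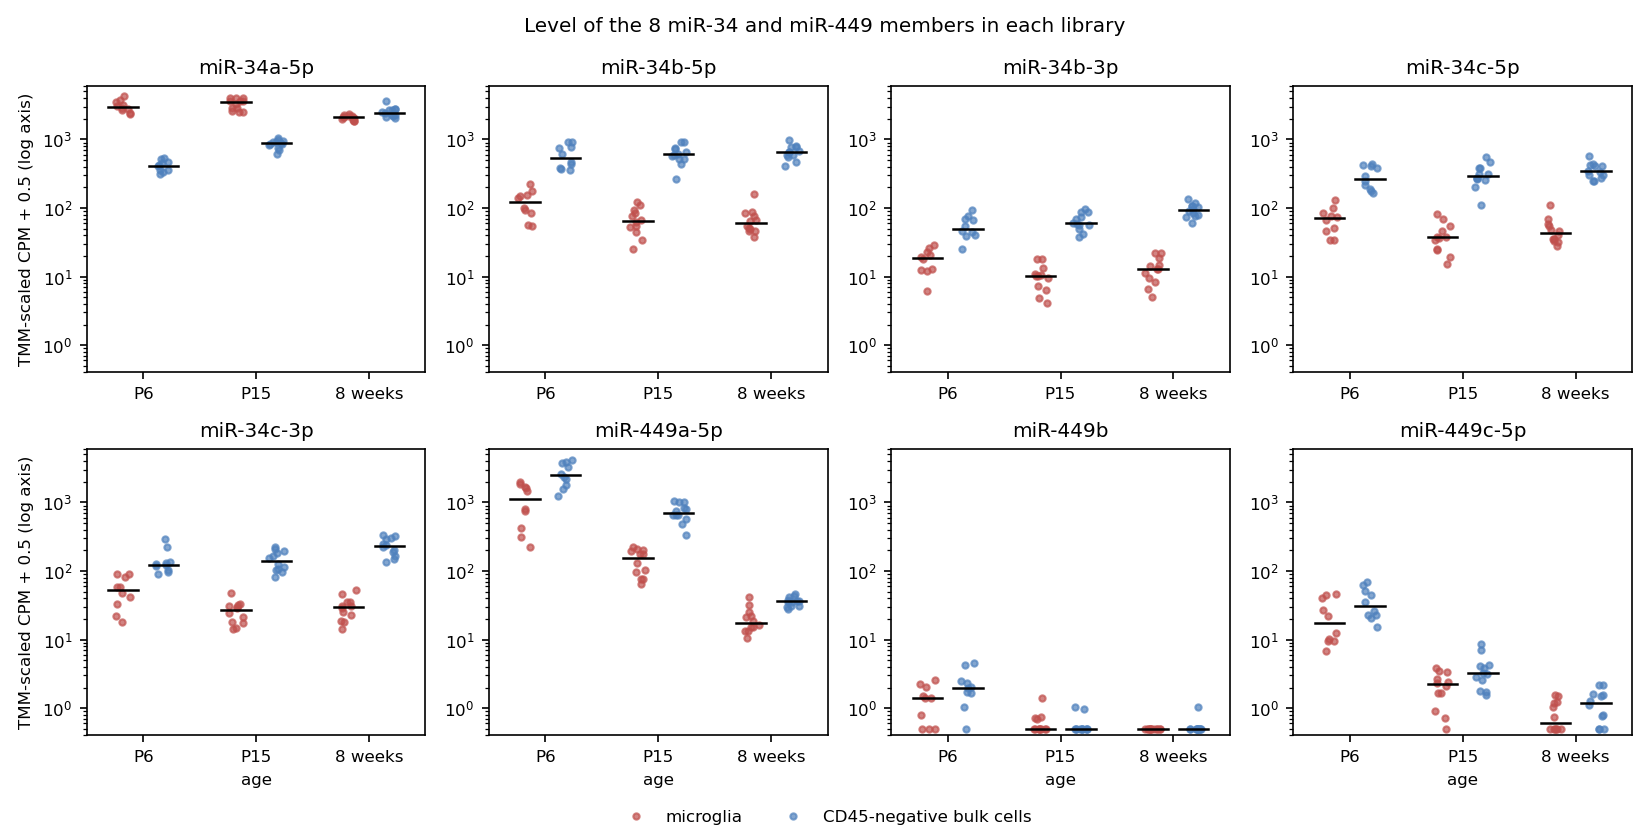
Level of each member in each library, as TMM-scaled CPM plus 0.5 on a log axis, by age. Points are libraries (10 mice at P6, 12 at P15 and at 8 weeks), red for microglia and blue for CD45-negative bulk cells, and black lines are medians. miR-34a-5p was high in microglia at each age and climbed in bulk cells, the 4 miR-34b and miR-34c members stayed lower in microglia, and miR-449a-5p and miR-449c-5p dropped with age in both fractions.

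miR-34a-5p was enriched in young microglia, and no difference was called at 8 weeks, when its level in bulk cells had risen. At P6 it had 2321, 2998 and 4266 CPM (lowest, median and highest of 10) in microglia and 315, 413 and 544 CPM in bulk cells. At P15 the values were 2532, 3469 and 4062 CPM against 610, 873 and 1049 CPM (n = 12 each). At 8 weeks they were 1825, 2089 and 2376 CPM against 2043, 2436 and 3626 CPM (n = 12 each). Microglia lay above bulk cells without overlap at P6 and P15, and the 2 fractions overlapped at 8 weeks.

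Fitted as microglia against bulk cells, P6 gave 2.83 ± 0.10 on the log2 scale (SE, adjusted p = 1.43e-25), a 7.11-fold difference seen in 10 of 10 mice. P15 gave 1.94 ± 0.09 (SE, adjusted p = 5.88e-15, in 12 of 12 mice). At 8 weeks it was -0.26 ± 0.09 (SE, adjusted p = 1, lower in 11 of 12 mice). miR-34a-5p was the only member called higher in microglia at any age. Of all features, 17.4% were called higher at P6, 21.3% at P15 and 21.2% at 8 weeks.

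Within bulk cells miR-34a-5p was called higher at 8 weeks than at P15 (log2 fold change 1.55 ± 0.10 SE, adjusted p = 2.80e-06) and than at P6 (2.57 ± 0.10 SE, adjusted p = 7.06e-22, a 5.94-fold difference). From P6 to P15 the difference was 1.02 ± 0.10 (SE, adjusted p = 1), at the fold change threshold itself, although the groups did not overlap. When libraries were scaled by their totals alone, the 8-week to P15 difference was 1.08 and no longer called (adjusted p = 0.967). That scaling also moved the median of all features, and relative to the median the difference was 1.31 under both. The 3 oligodendrocyte markers rose in bulk cells over the same ages, from a summed median of 1727 CPM at P6 to 14170 at P15 and 29216 at 8 weeks. The 5 neuronal markers rose as well (74979, 86825 and 162605 CPM), and the 2 endothelial markers fell (25648, 25118 and 20273 CPM). The part of any of these cell types in the rise of miR-34a-5p was not tested.

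Within microglia no age difference of miR-34a-5p was called. The log2 fold change was 0.13 ± 0.10 (SE) from P6 to P15, -0.65 ± 0.09 (SE) from P15 to 8 weeks and -0.52 ± 0.10 (SE) from P6 to 8 weeks, each with an adjusted p of 1. Every 8-week microglial library nevertheless lay below every P15 microglial library. By median the 6 groups ran from P15 microglia, P6 microglia, 8-week bulk cells and 8-week microglia, each overlapping the next, to P15 and then P6 bulk cells, which stood apart from the others and from each other.

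The change of enrichment with age was itself tested. It fell by 2.21 on the log2 scale from P15 to 8 weeks (SE 0.12, adjusted p = 5.50e-12) and by 3.09 from P6 to 8 weeks (SE 0.13, adjusted p = 2.41e-21). The difference between P6 and P15 was -0.89 ± 0.13 (SE, adjusted p = 1). Of all features, 3.36% were called in the first of these comparisons, 14.6% in the second and 1.59% in the third. No other member was called in any of the 3 in this fit.

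The other arm of the precursor, miR-34a-3p, gave a separate count of the same hairpin. It had medians of 29.6, 19.1 and 19.9 CPM in microglia at P6, P15 and 8 weeks against 2.05, 7.54 and 31.9 CPM in bulk cells. It was called higher in microglia at P6 (3.74 ± 0.22 SE, adjusted p = 1.82e-17) and P15 (1.51 ± 0.17 SE, adjusted p = 0.0049), and not at 8 weeks (-0.71 ± 0.14 SE, adjusted p = 1). The change of its enrichment was called between each pair of ages, at -2.23, -2.22 and -4.45 for P6 to P15, P15 to 8 weeks and P6 to 8 weeks.

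**Figure D2:**
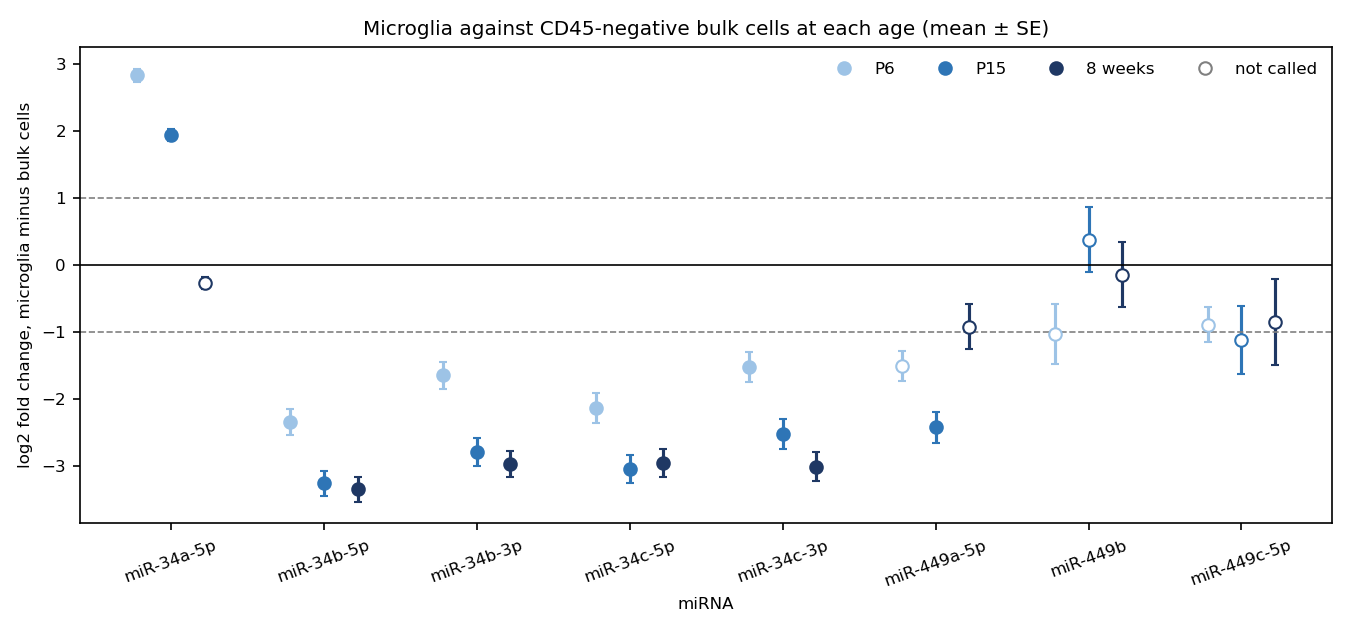
Log2 fold change of microglia against CD45-negative bulk cells for each member at P6, P15 and 8 weeks, as the fitted mean with its standard error (10, 12 and 12 mice). Filled points were called and open points were not, and dashed lines mark a log2 fold change of 1 in either direction. miR-34a-5p went from 2.83 to -0.26, and the 4 miR-34b and miR-34c members lay between -3.34 and -1.52.

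The 4 products of miR-34b and miR-34c ran the opposite way, being lower in microglia than in bulk cells in every mouse at each of the 3 ages. miR-34b-5p, the most abundant of them, had 55.0, 120 and 220 CPM (lowest, median and highest) in P6 microglia against 356, 539 and 909 CPM in P6 bulk cells. At P15 it had 24.5, 64.2 and 123 CPM against 265, 603 and 901 CPM. At 8 weeks it had 37.7, 59.3 and 159 CPM against 413, 646 and 977 CPM. The fractions did not overlap at any age, and the lowest bulk library of any age was above the highest microglial library of any age.

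For miR-34b-5p the fitted log2 fold changes were -2.33 ± 0.19 at P6, -3.25 ± 0.18 at P15 and -3.34 ± 0.18 at 8 weeks (SE), with adjusted p-values of 2.18e-08, 1.10e-17 and 2.82e-18. miR-34c-5p differed by -2.13 ± 0.22, -3.04 ± 0.21 and -2.95 ± 0.20 (SE), with medians of 70.2, 36.7 and 42.3 CPM in microglia and 267, 292 and 342 CPM in bulk cells. The 3p arms were rarer. miR-34b-3p had medians of 18.2, 9.67 and 12.4 CPM in microglia and 49.2, 59.3 and 94.0 CPM in bulk cells, and differed by -1.64 ± 0.20, -2.79 ± 0.20 and -2.97 ± 0.19 (SE). miR-34c-3p, with medians of 52.2, 26.2 and 29.8 CPM against 123, 140 and 228 CPM, differed by -1.52 ± 0.23, -2.51 ± 0.22 and -3.01 ± 0.22 (SE).

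These 12 differences were all called. Of the 8 members, 4 were called lower at P6, 5 at P15 and 4 at 8 weeks, where 10.6%, 18.7% and 23.7% of all features were. In either direction the members called were 5, 6 and 4, against 28.1%, 39.9% and 44.9% of features. Members without overlap between the fractions were 3, 6 and 4, against 24.1%, 29.9% and 40% of features. At P6 miR-34b-3p and miR-34c-3p still overlapped between the fractions, while at P15 and 8 weeks none of the 4 did. The call of miR-34c-3p at P6 was close to the threshold (adjusted p = 0.0457). It was lost without 1 mouse for 3 of the 34 mice (females 5 and males 5 and 6 of P6, adjusted p = 0.0813 to 0.159) and under 4 further alternatives, of which thinning every library to the smallest total gave the weakest value (-1.37, adjusted p = 0.339).

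No change with age was called for the miR-34b and miR-34c members. In bulk cells the log2 fold change from P6 to 8 weeks was between 0.12 and 0.77 over the 4, and in microglia between -0.89 and -0.54, each with an adjusted p of 1. In limma TREAT 0 of the 4 were called in any of the 6 age comparisons, and 0 had an unadjusted p under 0.05. Of all features, 2.89% were called in microglia from P6 to P15, 4.57% from P15 to 8 weeks and 16.6% from P6 to 8 weeks, and 3.54%, 11% and 25.7% in bulk cells. Without the fold change threshold, 4 of the 4 were called lower in microglia at P15 than at P6 by moderated limma, edgeR and DESeq2, which called 34.1%, 33.8% and 35.3% of all features there. From P6 to 8 weeks in microglia, moderated limma called 2 of the 4, and edgeR and DESeq2 4 each, against 53.9%, 54.2% and 56.4% of features. In bulk cells from P6 to 8 weeks each of the 3 tools called 2 of the 4, against 66.2%, 61.4% and 61.1% of features. From P15 to 8 weeks they called 2, 2 and 1, against 50.7%, 49.4% and 48.8%.

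Between P6 and 8 weeks the enrichment of these 4 differed by -1.01, -1.33, -0.82 and -1.49 on the log2 scale for miR-34b-5p, miR-34b-3p, miR-34c-5p and miR-34c-3p. None of these was called with mouse as a random effect (adjusted p = 0.279 for miR-34c-3p, the lowest of the 4). With mouse as a fixed replicate block, so that each brain was its own control, miR-34c-3p passed at -1.50 (adjusted p = 0.0473).

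The arms of one hairpin were also compared with each other in each library. In the miR-34b precursor the 5p arm took a median of 88.0%, 87.8% and 85.4% of the reads in microglia (in order of age), against 91.3%, 90.3% and 87.8% in bulk cells. The paired difference was -4.23 ± 3.64 percentage points at P6 (SD, n = 10, exact sign-flip permutation test, two-sided p = 0.00391, adjusted over 6 tests 0.00781). It was -3.20 ± 3.33 at P15 (SD, n = 12, exact permutation p = 0.00635, adjusted 0.00952) and -3.29 ± 4.78 at 8 weeks (SD, n = 12, exact permutation p = 0.0361, adjusted 0.0434). The share was higher in microglia in only 1, 2 and 4 mice at the respective ages.

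In the miR-34c precursor the arms were more even, with medians of 57.2%, 60.0% and 63.4% for the 5p arm in microglia against 65.4%, 70.5% and 64.2% in bulk cells. The paired difference at P6 was -9.70 ± 4.47 percentage points (SD, n = 10, lower in microglia in every mouse, exact permutation p = 0.00195, the smallest that 10 mice allow, adjusted 0.00781). At P15 the difference was -8.08 ± 8.38 (SD, n = 12, exact permutation p = 0.00293, adjusted 0.00781). At 8 weeks it was 1.09 ± 4.72 (SD, n = 12, exact permutation p = 0.434, adjusted 0.434), within the spread between mice. Ligation and sequencing can favour one arm, so only differences between fractions are read here.

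miR-449a-5p, the main product of the miR-449 cluster, fell steeply with age in both fractions. In bulk cells it had 1223, 2483 and 4201 CPM (lowest, median and highest) at P6, 337.7, 701 and 1060 CPM at P15 and 27.4, 35.6 and 45.1 CPM at 8 weeks. In microglia it had 223.03, 1139 and 1970 CPM at P6, 64.2, 153 and 226 CPM at P15, and 9.98, 16.9 and 40.9 CPM at 8 weeks. The bulk groups did not overlap between any ages. In microglia the highest P15 library just reached the lowest P6 library, and the 8-week libraries lay below both. By median the 6 groups ran from P6 bulk cells through P6 microglia, P15 bulk cells and P15 microglia to 8-week bulk cells and 8-week microglia. P15 bulk cells and P15 microglia did not overlap, nor did P15 microglia and 8-week bulk cells, and each of the other neighbours did.

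From P6 to 8 weeks the log2 fold change of miR-449a-5p was -6.20 ± 0.28 (SE, adjusted p = 9.58e-26) in bulk cells and -5.61 ± 0.33 (SE, adjusted p = 1.74e-19) in microglia. The first step, to P15, was -1.88 ± 0.23 (SE, adjusted p = 0.00457) in bulk cells and -2.80 ± 0.26 (SE, adjusted p = 2.02e-07) in microglia. The second step, from P15 to 8 weeks, was -4.32 ± 0.28 (SE, adjusted p = 6.28e-16) in bulk cells and -2.81 ± 0.33 (SE, adjusted p = 2.63e-05) in microglia. The bulk step to P15 was not called without P6 female mouse 2 (-1.73, adjusted p = 0.0530).

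miR-449c-5p fell in the same way from a lower level. Its medians were 30.5, 2.72 and 0.690 CPM in bulk cells and 17.0, 1.74 and 0.116 CPM in microglia at P6, P15 and 8 weeks. The change from P6 to 8 weeks was -5.87 ± 0.50 (SE, adjusted p = 2.50e-13) in bulk cells and -5.83 ± 0.54 (SE, adjusted p = 1.07e-11) in microglia, and most of it came before P15 (-3.62 ± 0.36 and -3.85 ± 0.48 SE, both called). At 8 weeks 3 of 12 bulk libraries and 6 of 12 microglial libraries had no read of it, so the sizes of the later changes rest on few counts.

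miR-449b was barely detected. It had at most 30 counts in a library and was at 0 in 8 of 12 P15 microglial libraries, 10 of 12 P15 bulk libraries, 12 of 12 8-week microglial libraries and 11 of 12 8-week bulk libraries. Over all libraries of a group it had 27, 6 and 0 reads in microglia at P6, P15 and 8 weeks, and 135, 6 and 2 in bulk cells. Because it passed the filter only through P6 libraries, the group in which it was highest, no test against P6 or between the fractions at P6 is read for it. The other arms miR-449a-3p and miR-449c-3p had at most 16 counts and 1 count in any library.

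Of the 7 members other than miR-449b, 2 were called lower and 0 higher at 8 weeks than at P6 in microglia, where 9.42% of features were called lower and 7.18% higher, and the 2 were miR-449a-5p and miR-449c-5p. In bulk cells the same 2 were called lower, where 12.4% were, and miR-34a-5p higher, where 13.2% were. From P6 to P15 the same 2 were called lower in each fraction, against 2.15% of features in microglia and 1.68% in bulk cells. From P15 to 8 weeks miR-449a-5p was the 1 member called lower in each fraction, against 2.8% in microglia and 4.94% in bulk cells, and miR-34a-5p the 1 called higher in bulk cells, against 6.06%. Members whose ages did not overlap in microglia were 1 from P6 to P15, 2 from P15 to 8 weeks and 2 from P6 to 8 weeks, against 3.92%, 7.65% and 16.7% of features. In bulk cells these were 3, 2 and 3, against 5.88%, 17.7% and 26%. The age comparisons share groups and are not independent of each other.

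Between the fractions miR-449a-5p was lower in microglia in 34 of 34 mice. At P15 it differed by -2.42 ± 0.23 on the log2 scale (SE, adjusted p = 1.55e-07), and the fractions did not overlap. At P6 it was -1.50 ± 0.23 (SE, adjusted p = 0.0548) and at 8 weeks -0.92 ± 0.34 (SE, adjusted p = 0.892), both with overlap. With mouse as a fixed replicate block the P6 difference passed (-1.46, adjusted p = 0.0108), and over 34 fits without 1 mouse its adjusted p ranged from 0.0150 to 0.119. miR-449c-5p differed by -0.89 ± 0.26, -1.11 ± 0.50 and -0.85 ± 0.64 (SE) and miR-449b by -1.03 ± 0.44, 0.38 ± 0.48 and -0.14 ± 0.48 (SE), and none of these was called. The P6 value of miR-449b comes from the libraries that passed it through the filter and is given as a description only. Its later values rest on very few reads.

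The loci changed places in the family's reads. Of the reads of the 8 members in P6, P15 and 8-week bulk cells, the miR-449 cluster took a median of 65.2%, 27.6% and 0.943%. miR-34a took 9.50%, 31.9% and 65.1% in the same groups, and miR-34b with miR-34c 25.3%, 41.3% and 33.9%. In microglia miR-34a took 65.5%, 92.5% and 92.6%, the miR-449 cluster 27.8%, 3.94% and 0.807%, and miR-34b with miR-34c 6.32%, 3.85% and 6.45%. The ranges of the miR-449 share did not overlap between ages in bulk cells, and those of P6 and P15 microglia met, with a lowest P6 value of 6.09% and a highest P15 value of 6.82%. The family as a whole had a summed median of 3644, 2613 and 3808 CPM in bulk cells and 4680, 3749 and 2224 CPM in microglia.

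**Figure D3:**
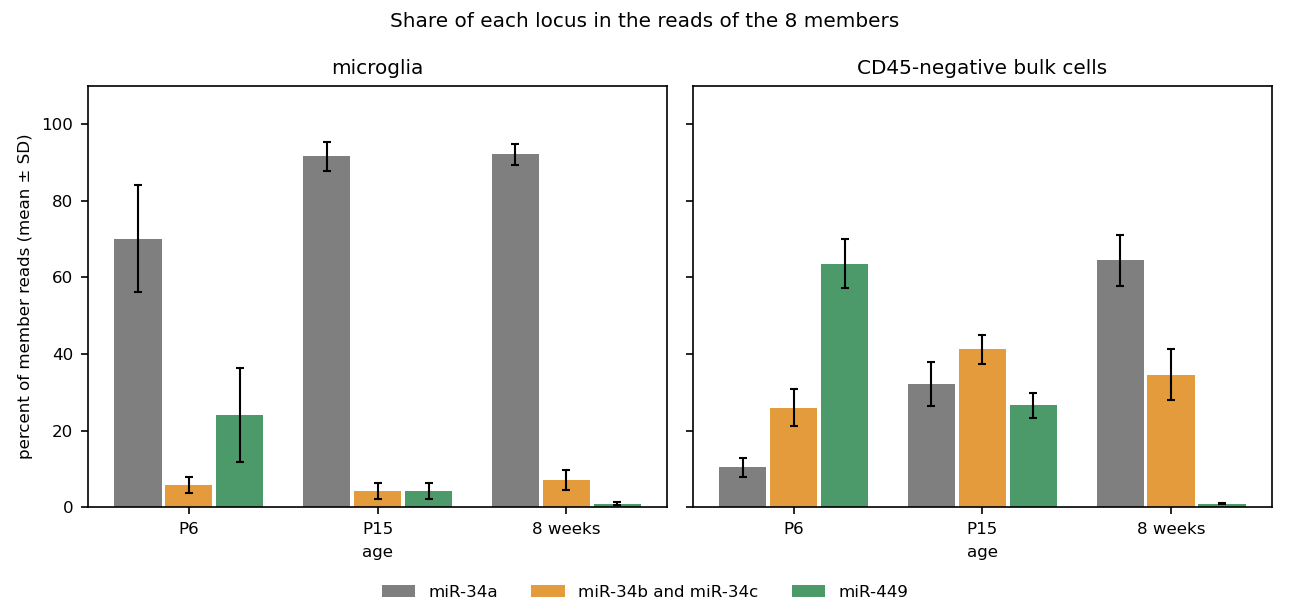
Percent of the reads of the 8 members that came from each of the 3 loci, by age, in microglia (left) and CD45-negative bulk cells (right). Bars are means over mice and error bars are SD (n = 10 at P6, 12 at P15 and 12 at 8 weeks). The miR-449 share in bulk cells dropped from a mean of 63.5% at P6 to 0.934% at 8 weeks while that of miR-34a grew from 10.5% to 64.5%.

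Among P6 microglial libraries the miR-449 level was far more uneven than that of miR-34a-5p. The coefficient of variation was 60.8% for miR-449a-5p and 19.3% for miR-34a-5p. Of the 10 libraries, 5 had 1474 to 1970 CPM of miR-449a-5p and the other 5 had 223.03 to 803 CPM. The lowest of them, from male mouse 6, was paired with the lowest P6 bulk library, at 1223 CPM. Whether members deviated together between mice was therefore examined, with deviations of log2 CPM taken from the mean of each age and sex over 34 mice, 12 relations in all, two-sided permutation within groups (100000 permutations) and Benjamini-Hochberg adjustment over the 12. CPM shares a denominator within a library, so some covariation between members of a library follows from scaling.

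In microglia miR-34c-5p and miR-449a-5p, from separate chromosomes, rose and fell together (r = 0.69, rho = 0.69, adjusted permutation p = 0.00012 and 0.00028, r = 0.67 without the 2 farthest mice). Within ages r was 0.93 (P6), 0.86 (P15) and 0.17 (8 weeks). In bulk cells r was 0.69 and rho 0.57 (adjusted permutation p = 0.00024 and 0.00255), r was 0.54 without the 2 farthest mice, and within ages it was 0.65, 0.87 and 0.30. The relation was weakest at 8 weeks in both fractions, when miR-449a-5p was near its lowest.

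**Figure D4:**
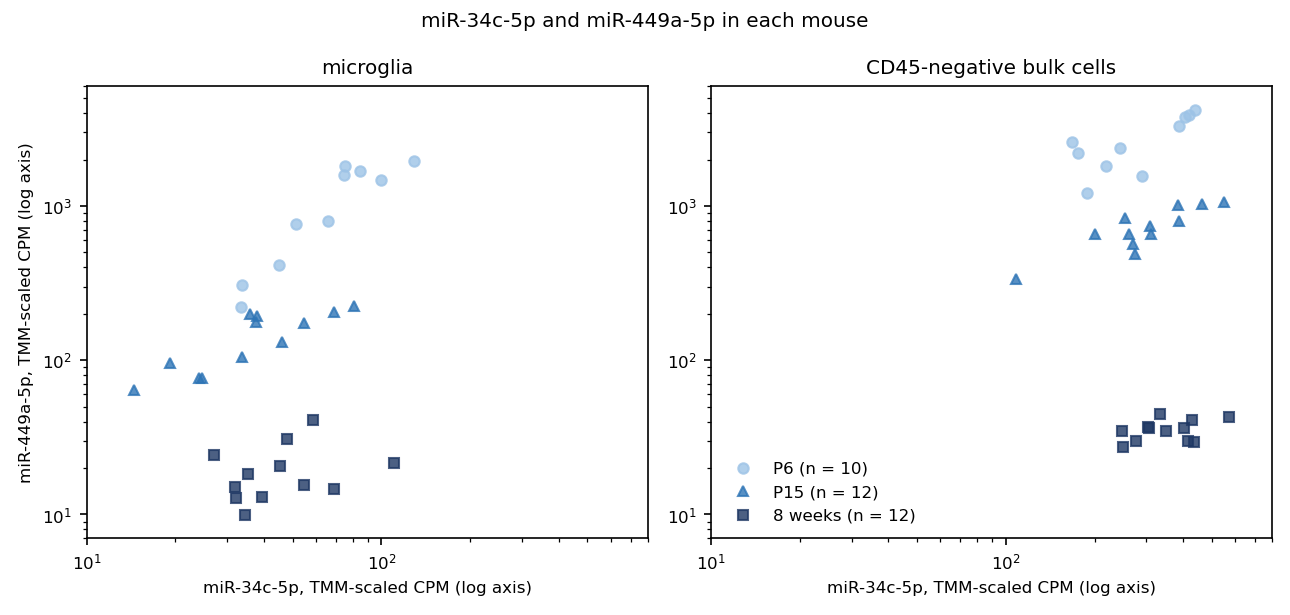
TMM-scaled CPM of miR-34c-5p (horizontal) and miR-449a-5p (vertical) in each mouse, both on log axes, in microglia (left) and CD45-negative bulk cells (right), with P6 (10 mice) as light circles, P15 (12) as triangles and 8 weeks (12) as dark squares. The ages overlap in miR-34c-5p and lie in bands of miR-449a-5p with P6 uppermost, and in microglia the P6 and P15 bands rise from left to right.

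Members of one locus also deviated together. miR-34b-3p and miR-34c-5p had r = 0.82 and rho = 0.78 in microglia (adjusted permutation p = 0.00012 for both, r = 0.77 without the 2 farthest mice) and r = 0.73 and rho = 0.73 in bulk cells (adjusted permutation p = 0.00016 and 0.00018, r = 0.77). For miR-449a-5p and miR-449c-5p r was 0.72 and rho 0.66 in microglia (adjusted permutation p = 0.00024 and 0.00102, r = 0.70) and 0.51 and 0.56 in bulk cells (adjusted permutation p = 0.00759 and 0.00255, r = 0.53). Within ages the latter pair reached 0.17 in microglia and 0.21 in bulk cells at 8 weeks, against 0.79 and 0.90 at P6.

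miR-34a-5p did not follow miR-34c-5p in microglia, where the relation was negative (r = -0.40, rho = -0.41, adjusted permutation p = 0.0467 and 0.0422, r = -0.44 without the 2 farthest mice). In bulk cells it was positive (r = 0.45, rho = 0.31, adjusted permutation p = 0.0241 and 0.105, r = 0.39). Within ages it was -0.29, -0.57 and -0.14 in microglia and 0.87, 0.69 and -0.26 in bulk cells. Both relations lost their call when libraries were scaled by their totals alone.

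A mouse with more miR-449a-5p in its bulk library also had more in its microglial library (r = 0.65, rho = 0.57, adjusted permutation p = 0.0019 and 0.0034, r = 0.49 without the 2 farthest mice), with r within ages of 0.90 (P6), 0.39 (P15) and 0.45 (8 weeks). For miR-34b-3p r was 0.45 and rho 0.53 (adjusted permutation p = 0.00636 and 0.00255, r = 0.35) and for miR-34c-5p 0.38 and 0.42 (adjusted permutation p = 0.00876 and 0.0187, r = 0.47). With libraries scaled by their totals alone the latter was 0.28 and no longer past the threshold. Within P15 the relations of miR-34b-3p and miR-34c-5p were weak, at 0.15 and 0.17. For miR-34a-5p, the member enriched in microglia, r was 0.17 and rho 0.12 (adjusted permutation p = 0.384 and 0.544, r = 0.07). Carry-over of bulk cells or their RNA into the microglial fraction was not tested. Neuronal and endothelial markers were present in microglial libraries as well, at a summed median of 2005 to 3915 CPM for the 2 endothelial markers against 20273 to 25648 CPM in bulk cells.

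Sex made no called difference for any member. Between males and females 0 of 8 members were called in either fraction at any age by limma TREAT, moderated limma, edgeR or DESeq2, and 0% of all features by TREAT. For the other tests the share of all features called between the sexes was not counted. At an unadjusted p under 0.05, TREAT had 0 members in each comparison, and moderated limma had 3 in microglia and 4 in bulk cells at P6, 1 in microglia at 8 weeks and 0 in the others. Of all features, 8.49%, 9.98% and 4.85% passed that p in the first 3 of these. In the others the share was 4.38% in P15 microglia, 15.3% in P15 bulk cells and 1.31% in 8-week bulk cells. At P6 the members that passed it were all lower in males, by up to -0.998 ± 0.362 (SE) for miR-34b-3p in microglia and -0.84 ± 0.26 (SE) for miR-34b-5p in bulk cells, with 4 females and 6 males. The 14 epithelial miRNAs described below had a median difference of -0.85 in microglia and -0.96 in bulk cells in the same comparisons, against 0.02 and -0.12 over all features. At P15 the median of these 14 was 0.41 in microglia and 0.95 in bulk cells, where that of the 8 members was 0.26 and 0.01. At 8 weeks it was 0.46 and 0.44, against 0.45 and 0.20 for the members. The part of the epithelial miRNAs in the difference at P6 was not tested.

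The miRNAs whose log2 CPM ran most like that of a member over the 68 libraries differed by locus. Correlations are given as a description, since age and fraction set much of each. For miR-34c-5p they were miR-879-5p (r = 0.93), miR-1264-5p (0.92), miR-1298-5p (0.92), miR-551b-3p (0.91) and miR-879-3p (0.90). Within bulk cells alone these were lower, at 0.29, 0.70, 0.42, 0.14 and 0.39 in that order. Within microglia alone they were 0.62, 0.46, 0.66, 0.70 and 0.70. For miR-449a-5p they were miR-130a-3p (0.96), miR-296-3p (0.95), miR-199a-3p and miR-199b-3p (0.95 each, with nearly the same counts) and miR-130a-5p (0.93), and each stayed above 0.90 within either fraction. For miR-34a-5p they were miR-21a-5p (0.92), miR-29b-1-5p (0.90), miR-3084-5p (0.86), miR-190a-3p (0.86) and miR-29a-5p (0.84). Within microglia alone these were 0.62, 0.24, 0.50, -0.18 and -0.45 in that order, against 0.79 to 0.97 within bulk cells.

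Other miRNAs known from choroid plexus and epithelia were read beside the members, as 14 miRNAs that were all tested. At P6 5 of these were called lower in microglia and 0 higher, at P15 6 and 2, and at 8 weeks 4 and 2, with a median log2 fold change of -1.55, -1.44 and -1.19 against 0.25, 0.28 and -0.10 over all features. Of all features, 10.6%, 18.7% and 23.7% were called lower at these ages and 17.4%, 21.3% and 21.2% higher. The list was thus not of one direction. The miRNAs named next were both lower in microglia and are not among those called higher. miR-1298-5p, encoded in an intron of the choroid plexus serotonin receptor gene Htr2c, differed by -4.03 ± 0.31, -4.38 ± 0.30 and -3.61 ± 0.33 (SE) at the 3 ages. miR-204-5p, abundant in choroid plexus and pigmented epithelium, differed by -3.10 ± 0.24 and -1.73 ± 0.21 (SE) at P6 and P15 and by -0.88 ± 0.21 (SE, not called) at 8 weeks. The summed level of all 14, including those called higher in microglia, was between 4829 and 21279 CPM in bulk cells over all ages. In microglia it was between 804 and 3824 CPM at P6 and between 3763 and 13374 CPM at 8 weeks. Whether ciliated or choroid plexus cells in a library account for its miR-34b, miR-34c or miR-449 level was not tested.

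With age, in bulk cells 2 of the 14, miR-1298-5p (-1.69 ± 0.28 SE) and miR-448-3p (-1.93), were called lower at 8 weeks than at P6. This was near the 12.4% of all features called lower there. In microglia 0 were called lower and 2, miR-204-5p (2.505 ± 0.254 SE) and miR-204-3p (2.93), were called higher, against 9.42% and 7.18% of all features. Of 4 markers of mural cells and fibroblasts, 2, miR-199a-3p and miR-214-3p, were called lower at 8 weeks than at P6 in both fractions. Of all features, 9.42% were in microglia and 12.4% in bulk cells. miR-199a-3p, also among the miRNAs most like miR-449a-5p, differed by -2.55 ± 0.12 (SE) in microglia and -2.93 ± 0.12 (SE) in bulk cells. miR-214-3p, expressed with it from one precursor transcript, differed by -4.45 ± 0.43 (SE) and -4.24 ± 0.37 (SE). Of the other 2, miR-145a-5p went the other way in bulk cells, where it was called higher at 8 weeks than at P6 (value below). miR-143-3p was not called in either fraction, nor was miR-145a-5p in microglia. The part of these cell types in the miR-449 levels was not tested.

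Of 5 miRNAs known to respond to p53 besides miR-34, 4 were tested. None was called higher in microglia at any age, where 17.4%, 21.3% and 21.2% of all features were. At 8 weeks miR-192-5p (-1.32 ± 0.08 SE) and miR-194-5p (-1.68 ± 0.12 SE) were called lower, against 23.7% of features. In bulk cells miR-145a-5p was the 1 called from P6 to 8 weeks, at 1.91 ± 0.27 (SE), against 25.7% of features. miR-145a-5p is also a marker of mural cells. Of 3 miRNAs of neural progenitors, 1, miR-9-5p, was called lower in bulk cells at 8 weeks than at P6 (-1.48 ± 0.18 SE), and 0 of the 3 in microglia, where miR-9-5p differed by -1.31 ± 0.18 (SE, adjusted p = 0.202). Of all features, 12.4% were called lower in bulk cells and 9.42% in microglia in these comparisons.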

How the data were processed

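The labels gave age, sex, cell fraction and mouse number. The authors trimmed reads with fastp 0.20.0, matched them to miRBase with miRDeep2 and mapped the rest to GRCm38, and deposited raw counts per miRNA entry and library. Reads that fit several precursors are counted for each, and no molecular identifiers were used. Of 2029 entries under 1885 names, the one with the largest total was kept for each name, and 3 duplicate candidates were dropped, leaving 1882 features. The study removed 1 mouse, unnamed in the sources used here. P6 female mouse 6 is missing from its source data, and its 2 libraries were left out for that reason. Counts were scaled by TMM in edgeR 4.0.16 and fitted in limma 3.58.1 with voom weights (R 4.3.3) over 12 groups of age, sex and fraction, with mouse as a random effect (consensus correlation 0.124). Both libraries of a mouse number at one age and sex came from one brain, which pairs them. Contrasts were averaged over the sexes and tested with TREAT beyond a log2 fold change of 1, with Benjamini-Hochberg adjustment over 1072 features. Correlations used log2 (CPM + 0.5), and arm shares used hairpins with at least 10 reads (scipy 1.17.1). The named miRNAs were the members, their other arms, the 5 most correlated miRNAs of miR-34c-5p, miR-449a-5p and miR-34a-5p, and up to 4 of each list. Members and lists were chosen with earlier results of these data known. Alternatives were a moderated limma test, edgeR's quasi-likelihood test, DESeq2 1.42.0, fixed or no mouse block, other scalings, filters and weights, summed entries, thinning, the mouse set aside, and leaving out each of 34 mice. The fit was run on simulated counts with planted differences between fractions, well beyond the fold change threshold and without a mouse effect. That run tests neither the pairing nor differences near the threshold. P-values measure the spread between mice of one strain, and floors cover counting error only.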

Additional observations from a re-analysis of the deposited data

Results flagged for a closer look

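The enrichment of miR-34a-5p differed between ages by the interaction test, with a change of -2.21 on the log2 scale from P15 to 8 weeks and of -3.09 from P6 to 8 weeks. From P15 to 8 weeks its level rose by 1.55 on the log2 scale in bulk cells and differed by -0.65 in microglia, where the ages did not overlap and moderated limma, edgeR and DESeq2, but not TREAT, called it. With library size alone these were 1.08 and -0.98, and neither was called.

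In the mouse set aside, P6 female mouse 6, miR-449a-5p had 1225 CPM in the microglial library and 1996 CPM in the bulk library, within the ranges of the analysed P6 libraries. miR-34a-5p had 960 CPM in its microglial library, below the 2321 CPM of the lowest analysed P6 microglial library, and 506 CPM in its bulk library, within the range. In the same microglial library miR-34b-5p, at 247 CPM, and miR-34b-3p, at 34.8 CPM, lay above the analysed P6 maxima of 220 and 28.8 CPM. A far sample was looked for only at P6, in 16 groups of libraries by member and fraction, and there was none. The groups of the later ages were not examined for one.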

How the results depend on the processing

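Of 4452 comparisons of a member's result with an alternative, 4308 kept their side of the threshold and, where called, their direction, 27 lost their call, 117 gained one and 0 called results reversed. Sign changes occurred in 108 pairs that were called under neither fit. Leaving out each of 34 mice moved no count of called members by over 1.5 times.

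Tests without a fold change threshold called more members, and more of all features. Counts of members include miR-449b where it passed, also against P6 and between the fractions at P6, where no test of it is read for the reason given above. In microglia moderated limma called 7 from P6 to P15, 3 from P15 to 8 weeks and 6 from P6 to 8 weeks, with 34.1%, 37.2% and 53.9% of features. edgeR and DESeq2 called 7, 3 and 8 there, with 33.8%, 39.1% and 54.2% by edgeR and 35.3%, 42.1% and 56.4% by DESeq2. Between fractions moderated limma called 8 at P6 (69.9% of features), and edgeR and DESeq2 7 at 8 weeks (72.3% and 72.1%). In bulk cells from P15 to 8 weeks moderated limma and edgeR called 5 and DESeq2 4 (50.7%, 49.4% and 48.8%). For the change in enrichment each of the 3 called 6, 2 and 5, with 25.1%, 36.2% and 53.6% of features by moderated limma, 20.1%, 31.6% and 44.8% by edgeR and 22.8%, 34.2% and 46% by DESeq2.

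With mouse as a fixed replicate block, 6, 6 and 4 members were called between fractions at P6, P15 and 8 weeks (27.4%, 37.8% and 43.9% of features), and 2 for the change in enrichment from P6 to 8 weeks (14.2%). With no replicate block these were 4, 6, 4 and 1 (26.5%, 38.2%, 43.6% and 14.1%). The block changed no call but those of miR-449a-5p and miR-34c-3p given above. Age and sex comparisons lie between mice and could not be fitted with that block.

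Library size alone moved the median of all features by up to -0.48, in bulk cells from P15 to 8 weeks, and changed 3 of 96 calls. With it r was -0.32 for miR-34a-5p with miR-34c-5p in microglia, 0.23 in bulk cells, and 0.28 for miR-34c-5p between fractions, none past the threshold (the cause was not tested). miR-449b gave no value under the filter of 10 counts in 12 libraries. Depth limits miR-449b at every age and miR-449c-5p at P15 and 8 weeks.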
